A study of Mus musculus with 8 samples.

Results

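The 31 genes described here encode the enzymes of cholesterol synthesis, the proteins that control the transcription factor SREBP2, and the proteins that move, esterify or export cholesterol. They were chosen by name from a list of 33 symbols, with no measured value used, out of 23337 gene symbols in the count files. The 2 symbols that were not found are alternative names of members that were: the files list the sterol methyl oxidase Msmo1 under its older symbol Sc4mol, and Sc5dl as Sc5d. All 31 passed the filter on low counts and were tested among 14328 genes.

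Cholesterol is built from acetyl-CoA by way of mevalonate, isopentenyl and farnesyl units, squalene and lanosterol, and most of the enzymes sit in the membrane of the endoplasmic reticulum (ER). SREBP2, encoded by Srebf2, is held in the ER membrane with its escort SCAP, and the INSIG proteins retain the complex there when sterols are plentiful. When sterols are scarce the complex leaves for the Golgi, SREBP2 is cut, and the released part switches on the synthesis and uptake genes. In liver, surplus cholesterol is esterified by the SOAT enzymes, loaded onto lipoproteins by ABC transporters or turned into bile acids.

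Liver RNA was sequenced from C57BL/6 mice at 12 weeks of age, with 2 samples in each of 4 groups and 8 samples in all. WT mice carried floxed alleles of HRD1, an E3 ubiquitin ligase of the ER membrane, and no Cre. HRD1Alb mice (Hrd1-/- in the labels) carried the same floxed alleles with Alb-Cre, which removes the gene in hepatocytes from early liver development onward. Each genotype was sampled after an overnight fast and, separately, after a fast followed by 4 h of refeeding. The hour of collection is not given in the sources used here, and nothing says whether the 2 samples of a group came from separate animals, so the p-values measure the spread between these samples, which may be technical.

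Total counts ranged from 40210576 to 49117080 per sample. Values are given as CPM, counts scaled to a common library size after TMM normalization, which compares 1 gene between samples, and as CPM per kilobase of exon where genes are compared with each other. Differences are log2 fold changes with standard errors (SE) from edgeR's quasi-likelihood test on all tested genes, a gene was called at a Benjamini-Hochberg adjusted p under 0.05, and the other groups supply part of each estimate of spread, since with 2 samples a side the smallest p of an exact permutation test is 0.333. In the fasted condition Syvn1, the symbol of HRD1, was at 111 and 99.8 CPM in WT and 32.6 and 31.5 CPM in HRD1Alb liver (log2 fold change -1.72, adjusted p 0.17). After refeeding it was at 637 and 305 CPM in WT and 453 and 132 CPM in HRD1Alb liver, so that replicate 1 labelled HRD1Alb lay above replicate 2 of WT (log2 fold change -0.69, adjusted p 0.391). The counts cover the whole gene and do not separate the deleted exons, and below, a direction between genotypes after refeeding is one between libraries labelled HRD1Alb and WT.

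The 2 refed HRD1Alb libraries differed from each other far more than the replicates of the other groups. Between them 3204 genes differed at least 2-fold, against 424 to 1141 in the other groups, and the ratio of replicate 2 to replicate 1 fell with exon length (Spearman's rho -0.583 across 14177 genes, which are not independent, against -0.111 to 0.0277 elsewhere). The main values that include this pair are therefore given with and without replicate 2, and a group left with 1 library is assumed to vary like the others. Which of the 2 libraries deviates is not known, and leaving out replicate 1 instead could move values as far the other way. For refeeding in HRD1Alb liver the log2 fold change of Fdft1 was 2.62 without replicate 1 and 1.18 without replicate 2. That of Mvk was 3.09 and 1.62, and the refed genotype value of Abca1 was -1.76 and -0.86. The 8 hepatocyte markers, albumin and transthyretin among them, summed to between 110723 and 150804 CPM in the 4 WT samples. In the 4 HRD1Alb samples the sum was between 65703 and 110322 CPM. Every HRD1Alb sum thus lay below every WT sum, by little for replicate 2 of refed HRD1Alb liver. Albumin made up most of each sum, at 76587 CPM in that library, where transthyretin was at 6569 CPM, above every WT sample. Both HRD1Alb samples lay below both WT samples for 6 of 8 markers fasted, beside 34.2% of all tested genes. After refeeding they did for 3 of 8, near the 30.1% of all tested genes. The 8 macrophage and Kupffer cell markers summed to between 104 and 119 CPM in the 4 WT samples and between 256 and 521 CPM in the 4 HRD1Alb samples.

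Per kilobase of exon, the genes fell into a steep order of levels that refeeding rearranged. In fasted WT liver Insig2, which encodes an ER anchor of SCAP, led at 456 CPM per kilobase, followed by Ebp, the sterol isomerase late in the pathway, at 117, and by Tm7sf2, a sterol reductase, at 80.5. Soat1, Idi1 and Abcg1 stood at the bottom, at 0.236, 0.466 and 0.466 CPM per kilobase. In refed WT liver the leading genes were Hmgcs1, the synthase that makes HMG-CoA, at 185, Sc4mol at 167, Insig1 at 161 and Ebp at 139 CPM per kilobase, and Insig2 had dropped to 93.7. The 4 leading genes after refeeding do not separate from each other, since the samples of Hmgcs1 alone spanned 342 and 948 CPM. In refed HRD1Alb liver Hmgcs1 and Sc4mol again led, at 228 and 184 CPM per kilobase, with Fdps, the farnesyl diphosphate synthase, at 172 and Ebp at 172.

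**Figure D1:**
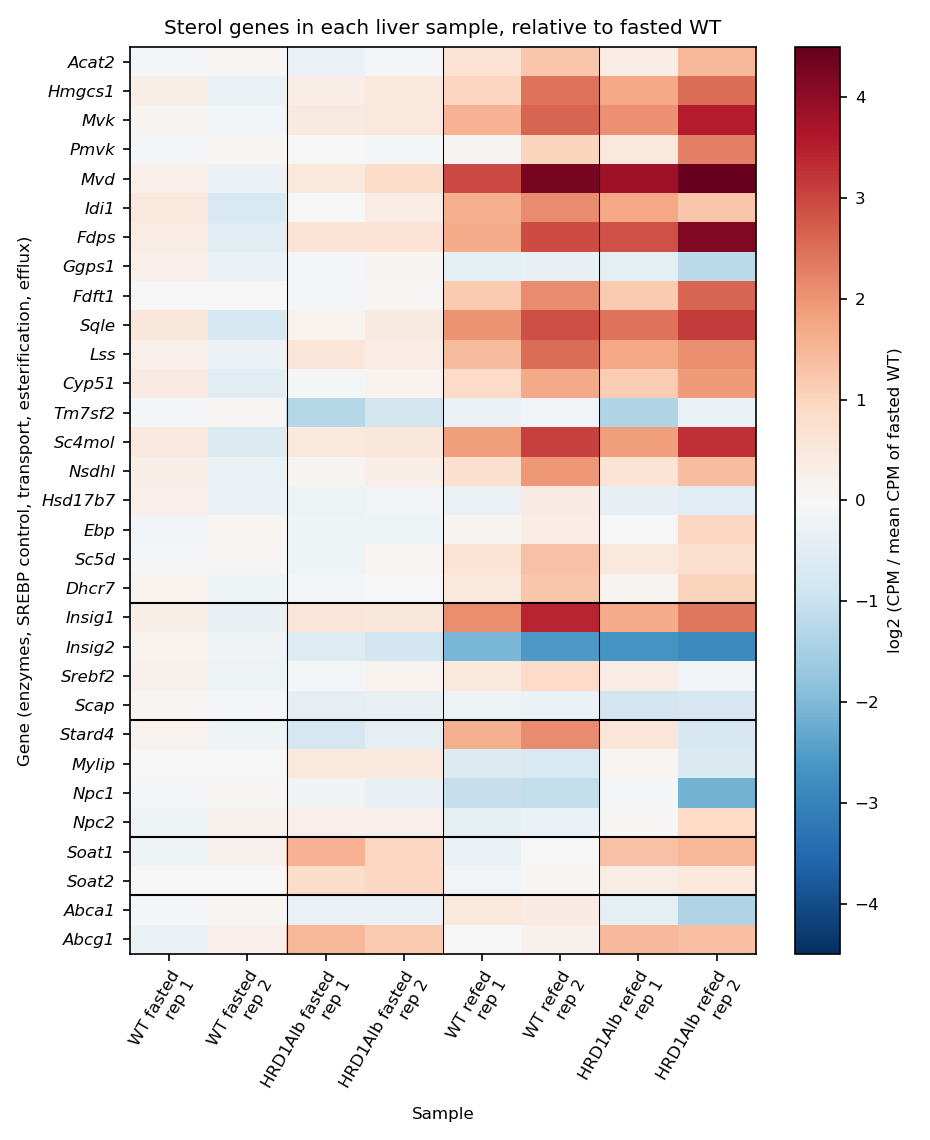
Log2 ratio of each sample's CPM to the mean CPM of fasted WT liver, with the 31 genes as rows and the 8 samples as columns. Most enzyme rows are red in the 4 refed columns, deeper in replicate 2 of each genotype, while Insig2 is blue in all 4 refed columns and Soat1, Soat2 and Abcg1 are red in the 4 HRD1Alb columns.

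SREBP2 binds a short element in the promoters of its targets, commonly beside a CCAAT box bound by the factor NF-Y. The core letters of the sterol element, searched as TCACNCCA, and the letters CCAAT were looked for on both strands of the RefSeq promoter windows of GRCm38.p6, which run from 250 bases before to 50 after a gene's start. Of the 31 genes, 24 had an entry, with 30 windows, and Abcg1, Fdft1, Fdps, Npc1, Soat2, Sqle and Stard4 had none. TCACNCCA was found in 3 of these 30 windows, in Hmgcs1, Sc4mol and Srebf2, and in 4.36% of all 32851 promoters. CCAAT was found in 21 of the 30 windows and in 37.4% of all promoters. None of the 8 called genes with an entry held TCACNCCA, while Insig1, Insig2, Lss, Mvd, Mvk and Soat1 held CCAAT. The windows below were chosen after the matches were seen: the first 3 hold both sets of letters, and Mvk and Mvd are called enzymes with several copies of CCAAT. Each is written 5′ to 3′ on the strand of its gene, with both motifs in capitals and CCAAT on the other strand reading ATTGG. The motifs can share the bases CCA, and did not in these windows. A match describes letters and is not a measured binding site.
Hmgcs1, chr13:119690160-119690236, plus strand, sterol letters 137 bases before the start: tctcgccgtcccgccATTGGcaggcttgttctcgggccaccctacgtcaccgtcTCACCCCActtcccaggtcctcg
Srebf2, chr15:82147092-82147153, plus strand, sterol letters 162 bases before the start: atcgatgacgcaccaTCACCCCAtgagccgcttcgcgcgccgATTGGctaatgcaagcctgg
Sc4mol, chr8:64733719-64733770, minus strand, sterol letters 177 bases before the start: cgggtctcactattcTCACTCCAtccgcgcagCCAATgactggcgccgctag
Mvk, chr5:114444081-114444268, plus strand, the 188 bases before the start: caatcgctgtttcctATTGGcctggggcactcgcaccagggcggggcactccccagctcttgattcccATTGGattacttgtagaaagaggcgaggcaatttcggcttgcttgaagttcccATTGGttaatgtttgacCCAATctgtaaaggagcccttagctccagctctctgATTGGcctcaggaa
Mvd, chr8:122443430-122443497, minus strand, from 75 to 8 bases before the start: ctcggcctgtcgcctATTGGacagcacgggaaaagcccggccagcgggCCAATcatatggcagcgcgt

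Refeeding was the condition under which the synthesis enzymes moved most. Among the 19 enzymes, 17 had a log2 fold change above 0 with refeeding in WT liver and 17 in HRD1Alb liver, with medians of 1.48 and 1.49, beside 0.00 and 0.02 over all tested genes. Over both directions 2.61% of all tested genes were called in WT and 10.5% in HRD1Alb liver. Among the enzymes Lss, Mvd and Sqle passed the test as higher in WT, and Fdft1, Fdps, Lss, Mvd, Mvk and Sqle in HRD1Alb liver, while none passed as lower. Counting all 31 genes, 4 rose in WT, where 1.2% of all tested genes were called higher, and 6 rose in HRD1Alb liver, where 5.43% were. With all samples Insig2 was the only member called lower, in WT, where 1.41% of all genes were called lower, and in HRD1Alb liver, where 5.05% were. For 16 of the 19 enzymes both refed samples lay above both fasted samples in WT, and likewise for 16 in HRD1Alb liver, beside 30.8% and 29.2% of all tested genes. Both refed samples lay below both fasted samples for 7 of the 31 members in WT and for 7 in HRD1Alb liver, beside 29.6% and 29.5% of all genes. Without the second refed HRD1Alb library the enzyme median in HRD1Alb liver was 1.10, and 6 enzymes were called, with Idi1 in place of Lss. Of all 31 genes 10 were then called in HRD1Alb and 21 in WT liver, beside 20.3% and 17.6% of all genes. Without any 1 of the 4 WT or the 2 fasted HRD1Alb libraries no member was called in WT liver, where at most 0.209% of all genes were, and without either fasted HRD1Alb library none was called in HRD1Alb liver.

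The 6 genes from acetyl-CoA to the isopentenyl units had a median log2 fold change of 1.89 in WT and 1.73 in HRD1Alb liver, and Mvd had the largest change of the 31 members in each. Mvd (chr8:122433601-122443422, minus strand), whose enzyme turns mevalonate diphosphate into isopentenyl diphosphate, was at 5.56 and 3.97 CPM in fasted WT and 37.7 and 92.9 CPM in refed WT samples. In HRD1Alb liver it was at 6.57 and 8.48 CPM fasted and 67.0 and 153 CPM refed. The fasted and refed samples were far apart in both genotypes, and replicate 2 was the higher refed sample in each. The log2 fold change was 3.78 ± 0.56 in WT (13.7-fold, adjusted p 0.0281) and 3.87 ± 0.56 in HRD1Alb liver (14.6-fold, adjusted p 0.0112), or 3.15 without the second refed HRD1Alb library (adjusted p 0.00459). In WT the value was 2.98 and did not pass without the second refed WT library.

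Mvk (chr5:114444269-114460591, plus strand), the mevalonate kinase, was at 7.68 and 6.42 CPM in fasted WT, 21.0 and 43.5 in refed WT, 9.43 and 9.88 in fasted HRD1Alb and 29.6 and 82.1 CPM in refed HRD1Alb samples. Fasted and refed samples did not overlap in either genotype, and the highest sample was replicate 2 of refed HRD1Alb liver. It rose in HRD1Alb liver (log2 fold change 2.53 ± 0.52, adjusted p 0.0281, and 1.62 with adjusted p 0.0199 without replicate 2), and in WT its log2 fold change of 2.19 ± 0.52 did not pass (adjusted p 0.0818). Pmvk, which adds the next phosphate, was at 18.9 and 20.5 CPM in fasted WT, 21.3 and 39.1 in refed WT, 19.3 and 18.9 in fasted HRD1Alb and 27.2 and 94.8 CPM in refed HRD1Alb samples. Only replicate 2 of refed HRD1Alb liver stood well above the rest, and neither change passed (log2 fold change 0.62 in WT, adjusted p 0.663, and 1.67 in HRD1Alb liver, adjusted p 0.0897, or 0.51 without that library).

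Hmgcs1, whose promoter letters are shown above and whose values are given for that reason, was at 208 and 142 CPM in fasted WT, 342 and 948 in refed WT, 213 and 245 in fasted HRD1Alb and 586 and 998 CPM in refed HRD1Alb samples. Both refed samples of each genotype lay above both fasted samples, and the refed WT samples differed 2.77-fold from each other. Neither log2 fold change passed the test with all samples, at 1.88 ± 0.49 in WT (adjusted p 0.106) and 1.79 ± 0.49 in HRD1Alb liver (adjusted p 0.0588, and 1.36 without replicate 2). Acat2, the thiolase at the entry of the pathway, and Idi1, the isopentenyl diphosphate isomerase, had log2 fold changes of 0.99 and 1.90 in WT and of 1.20 and 1.33 in HRD1Alb liver, and did not pass with all samples.

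At the prenyl and squalene steps both refed samples lay above both fasted samples for 4 of 5 genes in each genotype, and the median log2 fold changes were 2.08 and 2.07. Of the 5, 2 were called higher in WT, beside 1.2% of all genes, and 4 in HRD1Alb liver, beside 5.43%, and none was called in the interaction. Fdps (chr3:89093588-89101959, minus strand) was at 25.5 and 14.5 CPM in fasted WT, 64.3 and 152 in refed WT, 30.4 and 30.7 in fasted HRD1Alb and 144 and 355 CPM in refed HRD1Alb samples. No fasted sample reached a refed sample of either genotype, and the lower refed HRD1Alb sample was close to the higher refed WT sample. The log2 fold change was 3.03 ± 0.57 in HRD1Alb liver (8.16-fold, adjusted p 0.0216, and 2.24 with adjusted p 0.0165 without replicate 2), and 2.44 ± 0.55 in WT (adjusted p 0.0759). A gene model on the same strand shares 77.4% of the exon bases of Fdps, so its counts depend on how the authors' counting treated shared reads.

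Fdft1 (chr14:63145150-63179578, minus strand), the squalene synthase, was at 40.2 and 40.0 CPM in fasted WT, 89.8 and 177 in refed WT, 37.8 and 41.7 in fasted HRD1Alb and 89.9 and 244 CPM in refed HRD1Alb samples. The 4 fasted samples were nearly level, and all 4 refed samples lay above them. It rose in HRD1Alb liver by 2.07 ± 0.49 on the log2 scale (adjusted p 0.04, and 1.18 with adjusted p 0.0427 without replicate 2), and its 1.73 ± 0.48 in WT did not pass (adjusted p 0.126). Of its exon bases 20.9% overlap Ctsb on the other strand, and the strand setting of the counting is not given in the sources used here.

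Sqle (chr15:59315077-59331192, plus strand), the squalene epoxidase, was at 33.8 and 14.1 CPM in fasted WT and 96.5 and 178 CPM in refed WT samples. In HRD1Alb liver it was at 26.5 and 31.7 CPM fasted and 131 and 210.0 CPM refed. Every refed sample was above every fasted one. It rose in both genotypes, by 2.52 ± 0.48 on the log2 scale in WT (adjusted p 0.046) and by 2.55 ± 0.48 in HRD1Alb liver (adjusted p 0.0228, and 2.17 with adjusted p 0.0211 without replicate 2). The WT value was 2.01 without refed replicate 2 and 3.28 without fasted replicate 1, and passed in neither case.

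Lss (chr10:76531588-76557138, plus strand), which closes the rings to give lanosterol, was at 23.6 and 16.6 CPM in fasted WT, 54.4 and 115 in refed WT, 29.2 and 25.6 in fasted HRD1Alb and 67.5 and 85.9 CPM in refed HRD1Alb samples. Again all 4 refed samples exceeded all 4 fasted samples. It rose by 2.08 ± 0.37 on the log2 scale in WT (adjusted p 0.0376) and by 1.49 ± 0.36 in HRD1Alb liver (adjusted p 0.0431), and without the second refed HRD1Alb library the latter was 1.30 and did not pass (adjusted p 0.0545). The WT value was 1.44 and did not pass without the second refed WT library. Ggps1, which makes the geranylgeranyl units used outside the sterol branch, was the enzyme whose refed samples lay below its fasted samples in both genotypes (log2 fold change -0.37 in WT and -0.80 in HRD1Alb liver), and it did not pass the test in either (adjusted p 0.626 and 0.116).

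After lanosterol, no enzyme of 8 was called with refeeding in either genotype with all samples. Sc4mol (chr8:64718139-64733792, minus strand), which removes methyl groups from the sterol ring, came closest, at 75.3 and 36.6 CPM in fasted WT, 208 and 475 in refed WT, 78.0 and 80.5 in fasted HRD1Alb and 208 and 544 CPM in refed HRD1Alb samples. The refed samples of both genotypes lay above all fasted samples but differed more than 2-fold between replicates. Its log2 fold changes were 2.61 ± 0.59 in WT (adjusted p 0.0749) and 2.25 ± 0.58 in HRD1Alb liver (adjusted p 0.0517, and 1.39 without replicate 2). Cyp51, Nsdhl, Sc5d, Dhcr7 and Ebp, which act on the ring after lanosterol, had refed samples above fasted samples in both genotypes. Their log2 fold changes ran from 0.24 to 1.48 in WT and from 0.66 to 1.52 in HRD1Alb liver. Hsd17b7 and Tm7sf2 stood near 0, at 0.07 and -0.19 in WT and -0.26 and 0.31 in HRD1Alb liver.

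**Figure D2:**
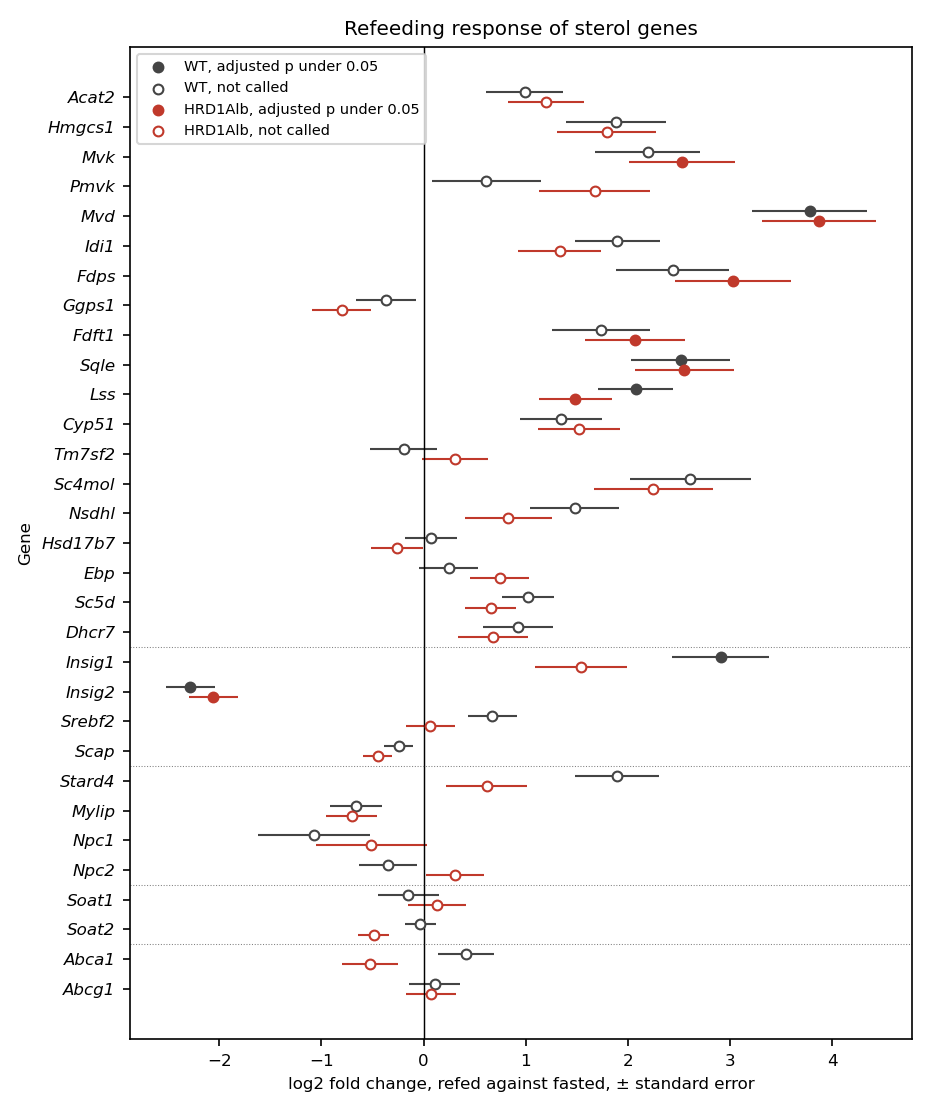
Log2 fold change of refed against fasted liver for the 31 genes, with bars of 1 SE, in WT (grey) and HRD1Alb (red) liver. Filled points have an adjusted p under 0.05; Mvd lies farthest to the right at 3.78 and 3.87, and Insig2 farthest to the left at -2.28 and -2.06.

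The replicates of the refed groups were unequal across the whole enzyme list. In refed WT liver all 19 enzymes were higher in replicate 2 than in replicate 1, with a median ratio of 1.84 and the widest at 2.77 in Hmgcs1, while the median log2 ratio of all tested genes was 0.00. In refed HRD1Alb liver 16 of 19 were higher in replicate 2, with a median ratio of 1.82 and the widest at 3.49 in Pmvk, beside 0.947 over all tested genes. The fasted WT pair ran the other way, with 5 of 19 higher in replicate 2 and a median ratio of 0.721. The median log2 ratio of the enzymes to the fasted WT mean was accordingly 0.22 and -0.25 in the fasted WT samples, -0.03 and 0.17 in the fasted HRD1Alb samples, 0.85 and 1.97 in the refed WT samples and 1.15 and 1.90 in the refed HRD1Alb samples. Every refed sample thus had a higher enzyme median than every fasted sample, and the gap between the refed WT replicates was wider than the gap between the lower of them and the higher fasted WT sample.

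Among the genes that control SREBP2, the INSIG genes moved in opposite directions. Insig1 (chr5:28071363-28078662, plus strand), itself a target of SREBP2, was at 70.1 and 45.8 CPM in fasted WT, 247 and 623 in refed WT, 84.8 and 82.7 in fasted HRD1Alb and 184 and 304 CPM in refed HRD1Alb samples. Its refed samples lay above its fasted samples in both genotypes, and replicate 1 of refed WT lay inside the range of the refed HRD1Alb pair. It rose in WT by 2.91 ± 0.48 on the log2 scale (7.50-fold, adjusted p 0.0336), and by 2.09, which did not pass, without the second refed WT library. In HRD1Alb liver the log2 fold change was 1.54 ± 0.45 and did not pass (adjusted p 0.0706, and 1.13 without replicate 2), and the difference between the genotypes' responses, -1.37 ± 0.63, did not pass either (adjusted p 0.6).

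Insig2 (chr1:121304353-121332589, minus strand) was at 1490.3 and 1203 CPM in fasted WT, 326 and 227 in refed WT, 891 and 737 in fasted HRD1Alb and 207 and 184 CPM in refed HRD1Alb samples. Every refed sample was below every fasted sample, and in each condition both HRD1Alb samples were below both WT samples. It fell with refeeding in both genotypes, with log2 fold changes of -2.28 ± 0.24 in WT (4.87-fold lower, adjusted p 0.012) and -2.06 ± 0.24 in HRD1Alb liver (4.16-fold lower, adjusted p 0.00638, and -1.97 with adjusted p 0.00376 without replicate 2). Between genotypes the log2 fold changes of -0.73 fasted and -0.50 refed did not pass (adjusted p 0.16 and 0.171). Liver is known to use an alternative start of Insig2 for a transcript that insulin represses, and the RefSeq table lists 3 starts over 4911 bases, which these gene-level counts do not separate.

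Srebf2 was at 57.3 and 43.4 CPM in fasted WT, 69.4 and 91.2 in refed WT, 49.1 and 56.6 in fasted HRD1Alb and 64.0 and 46.7 CPM in refed HRD1Alb samples. The refed WT samples were the highest 2 of the 8, and the other groups overlapped. With all samples no contrast passed, with 0.67 ± 0.24 for refeeding in WT (adjusted p 0.219) and -0.54 ± 0.24 for genotype after refeeding (adjusted p 0.161).

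Scap (chr9:110333288-110384950, plus strand) was at 158 and 149 CPM in fasted WT, 115 and 123 in fasted HRD1Alb, 131 and 128 in refed WT and 84.9 and 89.9 CPM in refed HRD1Alb samples. The samples of each group lay close together, and both HRD1Alb samples were below both WT samples in each condition. It was lower in the refed libraries labelled HRD1Alb (log2 fold change -0.57 ± 0.14, 1.48-fold lower, adjusted p 0.0442, and -0.61 with adjusted p 0.0105 without replicate 2), and in the fasted condition -0.37 ± 0.14 did not pass (adjusted p 0.227). The refed call was lost with the dependence on exon length removed (adjusted p 0.0652), and 18.6% of its exon bases overlap a gene on the other strand.

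Between genotypes, none of the 19 enzymes was called in either condition with all 8 samples used, where 1.35% of all tested genes passed in the fasted and 11.9% in the refed condition. The median log2 fold change of the enzymes was 0.05 fasted and 0.14 refed, beside -0.02 and 0.04 over all tested genes. The largest enzyme differences were -1.04 ± 0.33 for Tm7sf2 in the fasted condition (adjusted p 0.162) and 1.21 ± 0.53 for Fdps after refeeding (adjusted p 0.158, and 0.41 without replicate 2). Without the second refed HRD1Alb library the enzyme median after refeeding was -0.24 and 9 of the 19 enzymes changed sign. The refed log2 fold change of Tm7sf2 was then -1.15, a value that rests on 1 HRD1Alb library. The fasted comparison uses no refed sample, so leaving that library out changed mainly the shared estimate of spread there. Tm7sf2 (chr19:6062821-6068373, minus strand) was at 130.3 and 142 CPM in fasted WT and 56.5 and 76.4 CPM in fasted HRD1Alb samples, and at 113 and 125 CPM in refed WT and 53.7 and 111 CPM in refed HRD1Alb samples. In both conditions the HRD1Alb samples were the lower ones, by a wide margin when fasted and by little for replicate 2 when refed. With only 2 samples a group and standard errors from 0.25 for Sc5d to 0.56 for Sc4mol in the fasted contrast, most differences of the size seen here could not be told from 0.

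Apart from Scap, the genotype calls with all samples fell among the genes that store, export and move cholesterol. Soat2, in the fasted condition, was the only member called there with all samples, higher in HRD1Alb liver, beside 0.921% of all tested genes called higher. After refeeding 5 members were called, or 16.1% of the 31, not far above the 11.9% of all tested genes. Abcg1 and Soat1 were higher, beside 7.09% of all genes, and Abca1, Scap and Stard4 lower, beside 4.84%. Without regard to the test, both HRD1Alb samples lay above both WT samples for 12 of the 31 members when fasted and below them for 8, beside 30.6% and 34.2% of all tested genes. After refeeding they lay above for 4 and below for 8, beside 30.7% and 30.1%. Without the second refed HRD1Alb library 7 members were called when fasted and 8 when refed, beside 21.8% and 24.2% of all genes, and none of the 6 calls made with all samples was lost. Without any 1 of the 4 fasted or the 2 refed WT libraries no member was called when fasted, and none when refed without either refed WT library or fasted HRD1Alb replicate 1. The hepatocyte markers had median log2 fold changes of -0.67 fasted and -0.23 refed, with both HRD1Alb samples below both WT samples for 6 and 3 of 8. None of them was called with all samples, and 4 of 8 were called in each condition without the second refed HRD1Alb library, with a refed median of -0.82. Their part in the genotype differences of the members was not tested. In bulk liver a change in the number of cells of 1 type and a change in RNA per cell cannot be told apart.

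Soat1 (chr1:156424525-156474331, minus strand), the acyltransferase that esterifies cholesterol in many cell types and is abundant in macrophages, was at 1.72 and 2.24 CPM in fasted WT, 5.79 and 3.78 in fasted HRD1Alb, 1.61 and 1.97 in refed WT and 4.94 and 5.52 CPM in refed HRD1Alb samples. All 4 HRD1Alb samples were above all 4 WT samples. It was higher in the refed libraries labelled HRD1Alb by 1.55 ± 0.30 on the log2 scale (2.93-fold, adjusted p 0.0244, and 1.47 with adjusted p 0.019 without replicate 2), and its fasted 1.27 ± 0.29 did not pass (adjusted p 0.0865).

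Abcg1 (chr17:31057675-31117988, plus strand), which passes cholesterol to mature lipoprotein particles and is likewise strongly expressed in macrophages, was at 2.62 and 3.75 CPM in fasted WT, 8.92 and 7.12 in fasted HRD1Alb, 3.19 and 3.68 in refed WT and 8.79 and 8.07 CPM in refed HRD1Alb samples. The 4 HRD1Alb samples were again the highest 4. The log2 fold change was 1.30 ± 0.25 after refeeding (2.46-fold, adjusted p 0.0249, and 1.36 with adjusted p 0.012 without replicate 2) and 1.33 ± 0.25 in the fasted condition (adjusted p 0.055). All 8 macrophage and Kupffer cell markers were higher in both HRD1Alb samples than in both WT samples in each condition. The share of all tested genes was 30.6% fasted and 30.7% refed. Of the 8, 3 were called higher fasted and 8 refed, beside 0.921% and 7.09% of all genes. Their summed levels were 370 and 273 CPM in the fasted and 256 and 521 CPM in the refed HRD1Alb samples. Their part in the higher Soat1 and Abcg1 was not tested.

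Soat2 (chr15:102150526-102163469, plus strand), the acyltransferase of hepatocytes and intestine, was at 30.5 and 31.9 CPM in fasted WT, 55.9 and 59.3 in fasted HRD1Alb, 28.3 and 32.7 in refed WT and 39.3 and 42.9 CPM in refed HRD1Alb samples. The replicates were close, and the HRD1Alb samples exceeded the WT samples in both conditions, more so when fasted. The log2 fold change was 0.88 ± 0.15 fasted (1.84-fold, adjusted p 0.0478) and 0.43 ± 0.15 refed (adjusted p 0.101), and the fasted call was lost with RLE normalization.

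Abca1 (chr4:53030787-53159895, minus strand), which loads cholesterol onto apolipoprotein A-I, was at 207 and 229.6 CPM in fasted WT, 179 and 175 in fasted HRD1Alb, 302 and 280.2 in refed WT and 161 and 85.8 CPM in refed HRD1Alb samples. In WT both refed samples were above both fasted samples, in HRD1Alb liver both were below, and the genotypes did not overlap in either condition. It was lower in the refed libraries labelled HRD1Alb (log2 fold change -1.24 ± 0.28, 2.36-fold lower, adjusted p 0.0358, and -0.86 with adjusted p 0.00527 without replicate 2), and in the fasted condition -0.30 ± 0.28 did not pass (adjusted p 0.627). At an exon length of 10262 bases Abca1 was the longest member, and the refed HRD1Alb pair was the one whose ratio varied with length. With the dependence on exon length removed from every sample its log2 fold change was -0.81 (adjusted p 0.00919).

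Stard4, which carries cholesterol between membranes and is a target of SREBP2, was at 26.1 and 20.1 CPM in fasted WT, 70.7 and 101 in refed WT, 13.4 and 17.5 in fasted HRD1Alb and 33.4 and 14.0 CPM in refed HRD1Alb samples. The refed WT samples stood above all others, while of the refed HRD1Alb samples replicate 1 lay above the fasted samples and replicate 2 among them. It was lower in the refed libraries labelled HRD1Alb (log2 fold change -1.85 ± 0.41, 3.61-fold lower, adjusted p 0.0337, and -1.36 with adjusted p 0.0141 without replicate 2). Refeeding gave 1.89 ± 0.41 in WT (adjusted p 0.0653) and 0.62 ± 0.40 in HRD1Alb liver (adjusted p 0.317, and 1.11 with adjusted p 0.0221 without replicate 2). Without refed HRD1Alb replicate 1 the refed genotype value was -2.61. The difference between those responses, -1.28 ± 0.56, did not pass (adjusted p 0.595, and -0.78 without replicate 2).

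The remaining transport genes were not called in any contrast with all 8 samples used. Mylip, a ubiquitin ligase that lowers lipoprotein uptake, was between 7.22 and 7.65 CPM in refed WT and between 7.41 and 12.6 CPM in refed HRD1Alb samples, and at 16.3 CPM in both fasted HRD1Alb samples against 11.7 and 11.8 CPM in fasted WT. Npc2, a soluble lysosomal carrier of cholesterol, was at 49.9 and 52.9 CPM in refed WT and 67.8 and 123 CPM in refed HRD1Alb samples (log2 fold change 0.89 ± 0.29, adjusted p 0.0811, and 0.40 without replicate 2). Npc1, its membrane partner, was the member whose refed HRD1Alb replicates differed most, at 235 and 55.5 CPM, on either side of 118 and 113 CPM in refed WT. When fasted it was at 233 and 254 CPM in WT and 220 and 194 CPM in HRD1Alb samples. Refed HRD1Alb replicate 1 thus stood near the fasted level, and both refed WT samples were below it. For Mylip and Npc2 too, both refed WT samples lay below both fasted WT samples, beside 29.6% of all genes. Without replicate 2 the log2 fold changes of Npc1 and Mylip in the 1 remaining refed library labelled HRD1Alb against refed WT were 1.02 and 0.76. The values of Mylip, Npc1 and Npc2 are shown because these genes complete the transport list.

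**Figure D3:**
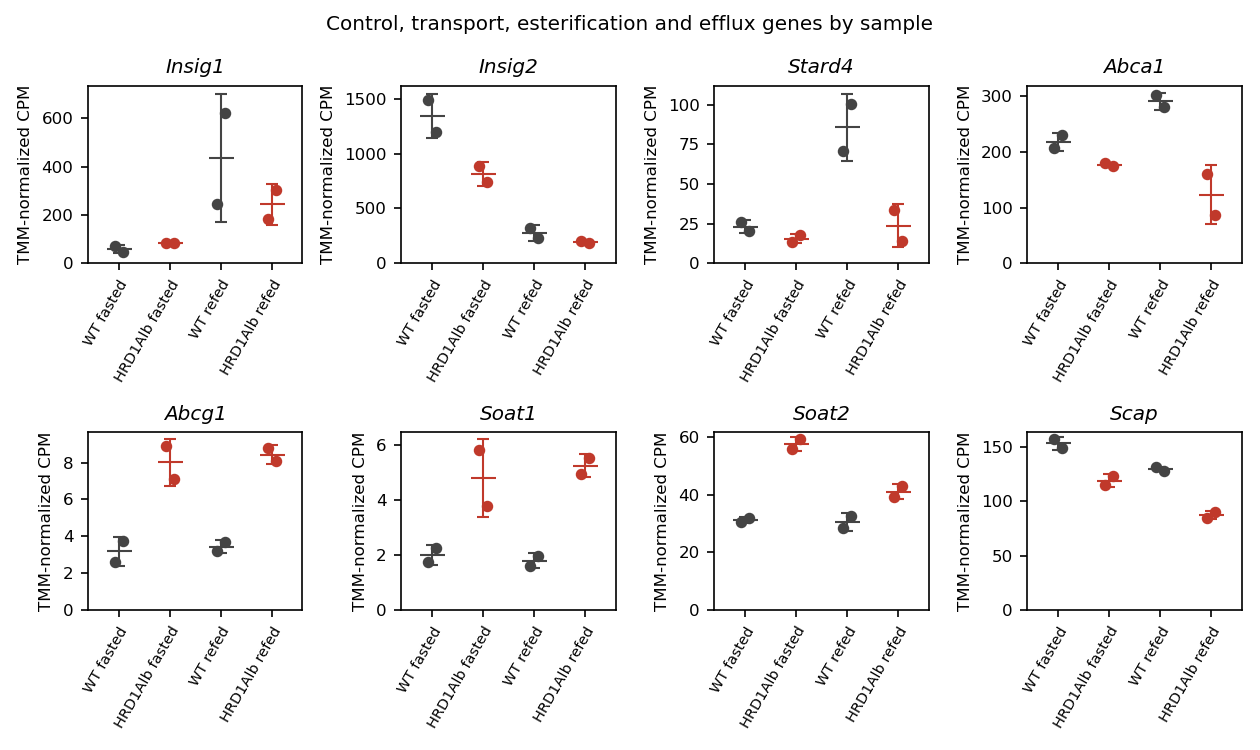
CPM of 8 control, transport, storage and export genes by sample, with a horizontal line at each group mean and bars of 1 SD (n = 2), WT in grey and HRD1Alb in red. Abcg1, Soat1 and Soat2 are higher in HRD1Alb liver in both conditions without overlap, Scap is lower, and Stard4 and Abca1 are highest in refed WT liver.

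**Figure D4:**
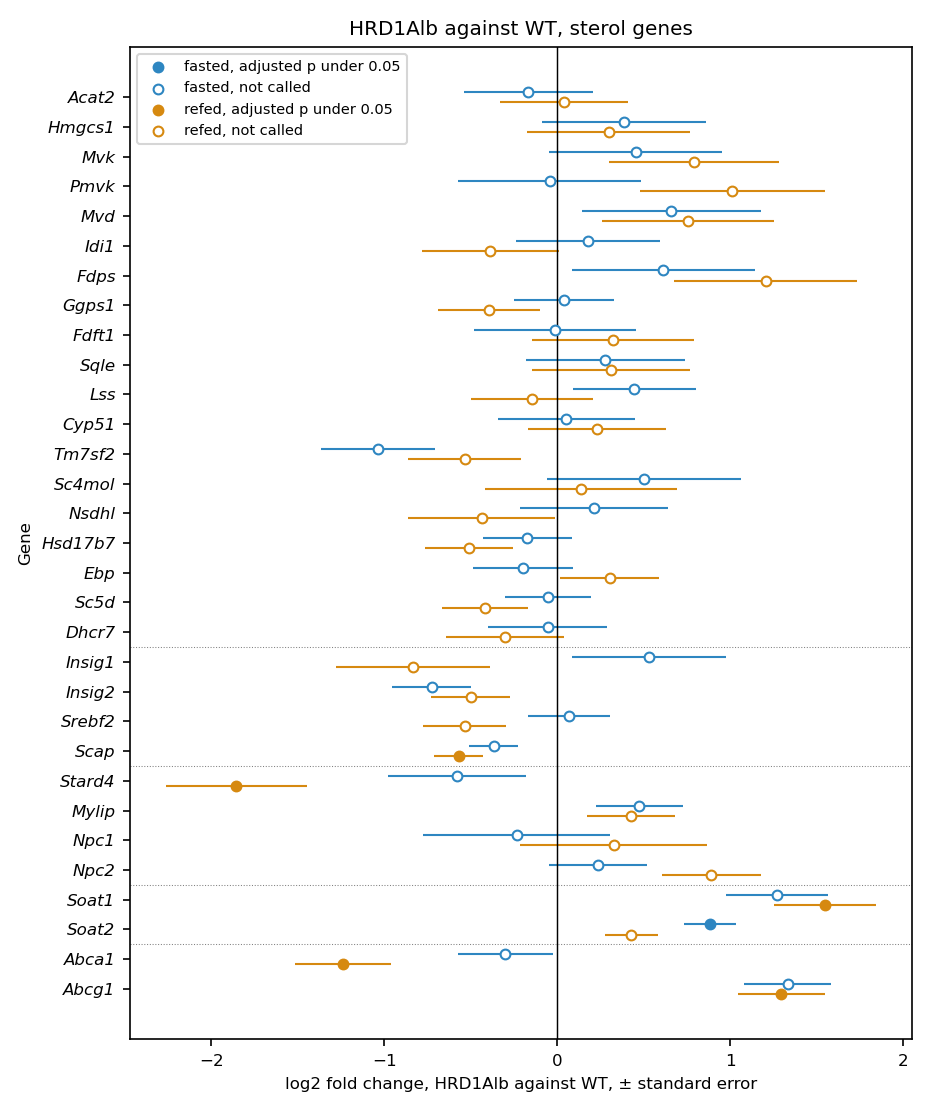
Log2 fold change of HRD1Alb against WT liver for the 31 genes, with bars of 1 SE, in the fasted (blue) and refed (orange) conditions. Filled points have an adjusted p under 0.05: Soat2 fasted, and Scap, Stard4, Soat1, Abca1 and Abcg1 refed.

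The interaction of genotype and feeding tests whether the genotypes responded differently to refeeding. With all samples no member was called by edgeR, and DESeq2 and limma-trend called none either. Over all 14328 genes edgeR and limma-trend called 0.0% and DESeq2 0.733%, and 8.44% had an unadjusted p under 0.05 in edgeR. Among the 31 members 1, Abca1, had an unadjusted p under 0.05 (log2 value -0.94 ± 0.39, adjusted p 0.587). The largest values among the members were -1.37 for Insig1, -1.28 for Stard4 and 1.06 ± 0.75 for Pmvk (adjusted p 0.651). For the 19 enzymes the median interaction was 0.03, beside 0.03 over all genes, and the single values ran from -0.65 for Nsdhl to 1.06 for Pmvk. Without the second refed HRD1Alb library the enzyme median was -0.49 and 10 of the 19 enzymes changed sign, while the values of Insig1, Stard4 and Pmvk were -1.77, -0.78 and -0.11. The log2 value of Npc1, whose refed WT samples lay below its fasted WT samples, was then 1.25, with 1 refed HRD1Alb library left. The standard errors of the values with all samples ran from 0.20 for Scap to 0.79 for Sc4mol.

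The 2 refeeding comparisons use different samples, and so do the 2 genotype comparisons, but each refeeding comparison shares samples with each genotype comparison. The refed WT samples therefore enter both the rise of a gene with refeeding in WT and its lower level in refed HRD1Alb liver, as for Stard4 (1.89 and -1.85) and Insig1 (2.91 and -0.84). The shared fasted HRD1Alb samples likewise enter both contrasts of Soat2 (0.88 for genotype when fasted and -0.49 for refeeding in HRD1Alb liver).

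The neighbouring genes of the pathway, a list of 41 that covers SREBP processing, the sterol receptor LXR and its targets, sterol-regulated ER degradation, isoprenoid enzymes, transport and bile acid synthesis, were called in both directions. With refeeding 2 of 41 were called higher and 3 lower in WT, beside 1.2% and 1.41% of all tested genes, and 2 higher and 6 lower in HRD1Alb liver, beside 5.43% and 5.05%. None of these 8 calls in HRD1Alb liver was lost without the second refed library. Srebf1, which encodes the SREBP of fatty acid synthesis, was at 32.6 and 29.4 CPM in fasted WT and 88.8 and 206 CPM in refed WT samples (log2 fold change 2.25 ± 0.37, adjusted p 0.0336), and 1.20 ± 0.36 in HRD1Alb liver did not pass (adjusted p 0.0733). Erlin1, part of the complex that degrades ER proteins in response to sterols, rose in both genotypes (1.16 and 1.03 on the log2 scale, adjusted p 0.0474 and 0.0338, and 1.32 in HRD1Alb liver without replicate 2).

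Abcg8, Nceh1 and Lpcat3 fell with refeeding in both genotypes. Abcg5, Cyp8b1 and Scarb1 were called lower in HRD1Alb liver, at -1.19, -1.96 and -0.64 on the log2 scale (adjusted p 0.017, 0.0239 and 0.0378), and did not pass in WT, at -0.71, -1.12 and -0.09 (adjusted p 0.135, 0.19 and 0.857). The difference between the genotypes' responses did not pass for any of these 3 (adjusted p 0.622, 0.626 and 0.583). Abcg8, a subunit of the transporter that secretes cholesterol into bile, was at 104 and 82.4 CPM in fasted WT and 41.0 and 36.1 CPM in refed WT samples, and at 64.0 and 78.7 CPM in fasted and 16.4 and 24.6 CPM in refed HRD1Alb samples. Its log2 fold change was -1.27 in WT (adjusted p 0.0457) and -1.80 in HRD1Alb liver (adjusted p 0.00954). Nceh1, a cholesteryl ester hydrolase, had log2 fold changes of -1.96 and -1.76 (adjusted p 0.00509 and 0.00346), and Lpcat3, an LXR target that remodels phospholipids, of -1.08 and -1.23 (adjusted p 0.0279 and 0.00865). Without replicate 2 the HRD1Alb values of Abcg8, Nceh1 and Lpcat3 were -2.13, -1.76 and -1.19.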

How the data were processed

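Liver RNA of 8 samples was isolated with TRIzol and run on an Illumina NextSeq instrument, 1 lane per sample. The values the authors deposited are whole-number counts per gene symbol, 1 file per sample and not normalized. The paper names ERANGE for counting, whereas the submitters' processing notes name cutadapt, STAR, HTSeq, DESeq2 and mm10. The annotation and strand setting are not given in the sources used here.

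The analysis used edgeR 4.0.16 under R 4.3.3. filterByExpr (minimum count 10, minimum total 15) kept 14328 of 23337 genes, TMM factors ran from 0.837 to 1.22, and all 8 samples entered 1 quasi-likelihood fit by group (common dispersion 0.0573). SEs were derived from the F statistic and the size of the log2 fold change, and p-values were adjusted by Benjamini-Hochberg over all tested genes of a contrast. The depth puts 3 counts at 0.0611 to 0.0746 CPM, far below every member. Exon lengths and positions are from GENCODE M21 on GRCm38 (98.9% of tested genes had a length), and promoters from RefSeq on GRCm38.p6. The fit was first tested on simulated data, and matplotlib 3.10.9 drew the figures.

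Alternatives were RLE normalization, no filter, at least 10 counts in every sample, the replicate number as a block, an exon length offset, both together, only the 4 samples of a contrast, each sample left out, limma-trend (limma 3.58.1) and DESeq2 1.42.0.

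Statistics are given for members called in any contrast, the 3 with the largest change in each contrast, and the control genes Insig1, Insig2, Srebf2 and Scap. Other members are given as context, by log2 fold changes or for the reason stated beside them. Shares of all genes called were recomputed for each alternative. The members, lists and tests were chosen with earlier results of these data known. Some other genes of the pathway are not reported here.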

Additional observations from a re-analysis of the deposited data

Results flagged for a closer look

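Abca1 was flagged because refeeding moved it in opposite directions in the 2 genotypes: both refed WT samples lay above both fasted WT samples (log2 fold change 0.42), and both refed HRD1Alb samples lay below both fasted HRD1Alb samples (log2 fold change -0.52). The difference between these responses was -0.94 on the log2 scale with an SE of 0.39, and it did not pass the test after adjustment over all genes (edgeR quasi-likelihood interaction, unadjusted p 0.045, adjusted p 0.587). With all samples neither response passed by itself (adjusted p 0.541 in WT and 0.231 in HRD1Alb liver). The size of the HRD1Alb response rested on refed replicate 2, at 85.8 CPM beside 161 CPM in replicate 1 and 179 and 175 CPM when fasted. Without it the log2 fold change in HRD1Alb liver was -0.14 (adjusted p 0.456) and the difference between the responses -0.56 (adjusted p 0.153). Abca1 is the longest member, with 10262 exon bases, and the ratio of replicate 2 to replicate 1 in that pair fell with exon length (Spearman's rho -0.583 across 14177 genes). With 2 samples a group no group was large enough to look for a single deviating sample.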

How the results depend on the processing

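Counts of called members depended on the processing more than their directions did, and with 2 samples a group each library carries much of the estimate of spread. In the fasted genotype contrast the count of 1 was 0 with RLE normalization, beside 1.27% of all genes. It was 2 with no filter and with limma-trend, beside 1.79% and 1.81%, and 6 with only its 4 samples, beside 14.2%. The exon length offset gave 3, beside 5.95%, and DESeq2 gave 4, beside 7.64%. After refeeding the genotype count of 5 was 0 with only its 4 samples, where 0 of all 14328 genes were called. For refeeding in WT the count of 5 was 10 with no filter and with the length offset, beside 2.46% and 6.07% of all genes. It was 15 with only its 4 samples and with DESeq2, beside 12.6% and 7.58%. For refeeding in HRD1Alb liver the count of 7 was 0 with only its 4 samples, where again 0 of all genes were called. It was 11 with the length offset, beside 15.8% of all genes, and 16 with DESeq2, beside 20.4%.

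Same-numbered samples deviated together only weakly (r from 0.0161 to 0.179 over 6 pairs of groups), so the numbers were not taken as pairs. The replicate block gave 0 calls for genotype in fasted and 4 in refed liver, beside 0.831% and 9.74% of all genes. It gave 3 for refeeding in WT, beside 2.13%, 6 in HRD1Alb liver, beside 9.37%, and 0 for the interaction, beside 0%. The block with the length offset gave 4, 7, 9, 12 and 0, beside 4.76%, 18.1%, 5.42%, 14.8% and 0% of all genes.

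Leaving out each library in turn gave 0 to 7 calls for genotype when fasted, 0 to 15 when refed, 0 to 21 for refeeding in WT, 0 to 24 for refeeding in HRD1Alb liver and 0 to 7 for the interaction. Without any 1 of the fasted or refed WT libraries, or of the fasted HRD1Alb libraries, no member was called for refeeding in WT or for genotype when fasted. Without either refed HRD1Alb library there were 21 of 31 and 7 of 31, beside at least 17.6% and 21.8% of all genes. Refed genotype calls were 2 without either fasted WT library, 0 or 1 without a fasted HRD1Alb library, 0 without either refed WT library, 15 without refed HRD1Alb replicate 1, beside 53.7% of all genes, and 8 without replicate 2, beside 24.2%. Refeeding calls in HRD1Alb liver were 4 without either fasted WT library, 0 without either fasted HRD1Alb library, 24 without refed HRD1Alb replicate 1, beside 52.2% of all genes, and 10 without replicate 2, beside 20.3%. The interaction had 7 without refed HRD1Alb replicate 1, beside 34.1% of all genes, and 1, Npc1, without replicate 2, beside 0.740%. The cause of these shifts was not tested.

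Of 674 recomputed values for single genes, 522 kept their direction and side of the threshold, 105 lost their call, 41 gained one and 6 changed sign. No called value changed sign. The 6 were Srebf2 for genotype when fasted without replicate 2 of fasted WT (-0.080) or of fasted HRD1Alb (-0.04) and Srebf2 for refeeding in HRD1Alb liver without HRD1Alb fasted replicate 1 (-0.03) or refed replicate 1 (-0.18), the Pmvk interaction without HRD1Alb refed replicate 2 (-0.11), and the Insig2 interaction without WT refed replicate 2 (-0.010). Over the libraries left out these ran from -0.080 to 0.28, -0.18 to 0.28, -0.11 to 1.70 and -0.010 to 0.52. Among calls, Scap was lost with no filter, the replicate block and both length corrections, Soat2 with RLE normalization and the block, Lss in both genotypes and Sqle in WT with the block. The counts of these genes were well above 3 in every sample, the lowest being 36 for Idi1 in replicate 2 of fasted WT. Whether depth limited the calls was not tested.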

Other observations

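Of 5 genes whose enzymes turn cholesterol into bile acids, Cyp7a1 and Cyp27a1 were called lower in fasted HRD1Alb liver, beside 0.433% of all tested genes, and Cyp8b1 and Hsd3b7 after refeeding, beside 4.84%. For all 5 both HRD1Alb samples were below both WT samples in each condition, beside 34.2% and 30.1% of all genes. These are genes of hepatocytes, and the 8 hepatocyte markers had median log2 fold changes of -0.67 fasted and -0.23 refed in the same contrasts, with 6 and 3 of 8 lower in both HRD1Alb samples. Their part in the lower levels was not tested. Cyp7b1, which was not called with all samples, differed widely between WT replicates, at 337 and 45.4 CPM fasted and 315 and 96.5 CPM refed. In HRD1Alb liver Cyp7b1 was at 14.5 and 14.2 CPM fasted and 22.6 and 23.8 CPM refed. Cyp7a1, the rate-limiting enzyme of the classic pathway, was at 271 and 369.8 CPM in fasted WT and 111 and 85.3 CPM in fasted HRD1Alb samples. Its fasted log2 fold change was -1.71 (edgeR quasi-likelihood test, adjusted p 0.0266) and its refed one -0.74 (adjusted p 0.0655), or -0.62 (adjusted p 0.0832) without the second refed HRD1Alb library. With refeeding it rose in HRD1Alb liver (1.50, adjusted p 0.0117, and 1.63 without that library), to 303 and 252 CPM, and was 0.54 in WT (adjusted p 0.274), and the interaction of 0.97 did not pass (adjusted p 0.561).

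Other neighbouring genes called between genotypes after refeeding included Tmem97, an ER protein that binds the NPC1 protein, higher by 0.90 on the log2 scale (adjusted p 0.0286, and 0.73 without the second refed HRD1Alb library), and Lipa, the lysosomal lipase that hydrolyses cholesteryl esters, at -0.65 (adjusted p 0.0443, and -0.56 without it). Both fasted HRD1Alb samples exceeded both fasted WT samples for 5 of 6 stellate cell, 3 of 6 lymphocyte and 2 of 6 endothelial markers. The share of all genes was 30.6%. For 4 of 5 cholangiocyte markers both lay below, beside 34.2%, with a median log2 fold change of -0.88. Some lymphocyte markers were near the floor, with Cd3d at 4 to 11 counts in the WT samples. After refeeding both HRD1Alb samples lay above both WT samples for 6 of 6 stellate cell, 5 of 6 lymphocyte, 2 of 6 endothelial and 2 of 5 cholangiocyte markers, beside 30.7% of all genes. The refed median log2 fold changes were 0.97, 1.21, 0.28 and 0.46. Colec11 and Des, 2 of the stellate cell markers, were called higher, beside 7.09% of all genes, and none of the other stellate, lymphocyte, endothelial and cholangiocyte markers was called in either genotype contrast with all samples. Without the second refed HRD1Alb library the stellate and lymphocyte medians were 0.94 and 0.67, and both of these stellate calls were lost.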
